A study of Homo sapiens with 4 samples.

Results

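Heat shock chaperones are proteins that bind unfolded or newly made proteins and keep them from aggregating while they fold. Their expression was compared in TPC1 cells, an established human papillary thyroid carcinoma line with a CCDC6-RET fusion, after 6 h and 24 h with the RET inhibitor BLU6864. The 10 genes were chosen by name from the 20372 genes of the deposited count table, by a rule that names the genes and sets no threshold on their values. They are HSPA1A, HSPA1B, HSPA8, HSPH1, HSP90AA1, HSP90AB1, DNAJA1, DNAJB1, HSPB1, and HSPD1. All 10 genes had enough reads to be tested. Of these, 9 encode chaperones of the cytosol, whereas HSPD1 encodes the chaperonin of the mitochondrial matrix, so the group is not strictly cytosolic.

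Each time point had 2 libraries of total RNA from cells grown in DMEM with serum, and the inhibitor was present in all 4. The labels mark both 24 h libraries as a re-analysis. They give a dose of 100 µM and single-end reads of 50 bases, whereas the methods of the study give 100 nM and paired-end reads of 100 cycles. Vehicle libraries were not analysed here, so the effect of the inhibitor and of time in culture cannot be told apart. Only the 24 h libraries carry the re-analysis mark, so any difference tied to that mark cannot be told apart from time either. TPC1 is 1 cell line, and nothing in the labels says that the libraries came from separate cultures. P values therefore set the difference between times against the spread between libraries of the same time, estimated with information shared over genes. That spread may be technical. Total counts lay between 23917056 and 27457040. Of the thyroid markers, PAX8 had at least 19124 reads in each library, FOXE1 and TG were also detected (FOXE1 was higher and TG lower at 24 h), and NKX2-1 and TSHR had 0 reads. Markers of white blood cells had at most 5 reads in a library apart from CD14, with 41 to 91 reads, which was higher at 24 h. Of 6 fibroblast markers, DCN and COL1A2 had at most 1 read, and PDGFRA had at most 11. PDGFRB and COL1A1 were lower at 24 h and LUM was higher. The part of these markers in the results on chaperones was not tested.

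The cytosolic chaperones work as a relay. J-domain proteins such as DNAJA1 and DNAJB1 deliver substrates to HSP70 proteins and start their ATP hydrolysis, HSPH1 (HSP110) exchanges the nucleotide, and HSP90 finishes the folding of kinases and receptors. RET itself is among the kinases known to depend on HSP90. Small heat shock proteins such as HSPB1 (HSP27) hold unfolded proteins without ATP. HSPA8 and HSP90AB1 are made at all times, whereas HSPA1A, HSPA1B, DNAJB1, and HSP90AA1 are classic targets of the heat shock factor HSF1. That factor binds heat shock elements, which are inverted repeats of the letters GAA.

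Start regions with this element are printed here for the genes with the largest changes and for the inducible HSP90 and J-domain genes. In RefSeq promoters (GRCh38.p14), each with 250 bases before and 50 after a start site, GAANNTTC or TTCNNGAA was found in 13.5% of 35116 promoters and in 16.2% of genes. Both 8-letter forms read the same on either strand. Of the 10 chaperone genes, all matched by symbol, 9 had a match in at least 1 promoter, and 10 of their 16 promoters did. HSPH1 was the gene with no match in its window. A run of 3 units in alternating direction, which contains both 8-letter forms and was searched on both strands, was in 0.49% of promoters and 0.608% of genes. It was in 5 of the 10 chaperone genes, namely HSPA8, HSP90AA1, HSP90AB1, DNAJA1, and HSPD1. A match of letters does not show that the factor was bound. In the sequences that follow, from GRCh38.p14 and written 5′ to 3′ on the strand of the gene, capitals mark 1 match in each.
HSPA8 (chr11:123062171-123062199, minus strand): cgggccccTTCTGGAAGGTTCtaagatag
HSPB1 (chr7:76302455-76302534, plus strand): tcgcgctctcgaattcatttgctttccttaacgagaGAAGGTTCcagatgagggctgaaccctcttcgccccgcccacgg
HSPA1A (chr6:31815401-31815480, plus strand): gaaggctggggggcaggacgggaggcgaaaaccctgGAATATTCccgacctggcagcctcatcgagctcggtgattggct
HSPA1B (chr6:31827597-31827676, plus strand): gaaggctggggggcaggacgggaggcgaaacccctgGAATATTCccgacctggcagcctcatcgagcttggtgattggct
HSP90AA1 (chr14:102087086-102087165, minus strand): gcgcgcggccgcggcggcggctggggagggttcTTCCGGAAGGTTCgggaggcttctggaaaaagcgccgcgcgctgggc
DNAJB1 (chr19:14518431-14518510, minus strand): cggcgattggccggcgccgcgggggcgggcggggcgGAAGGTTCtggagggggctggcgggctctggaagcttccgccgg
Counted from the start site, the matches in capitals begin at -55 in HSPA8 and -88 in HSP90AA1. Further matches were present. A second 8-letter match stands in lower case in the windows of HSP90AA1, at -68, and DNAJB1, at -47, and the promoter of HSPA8 holds a second run of 3 units at -230, outside the printed bases. The windows of HSPA1A and HSPA1B differ at 2 of 80 bases. The run of 3 units is in HSPA8, which rose, and in HSP90AA1, which fell. HSPB1, which fell, has the 8-letter form alone. Genes that did not pass the test between the times also hold matches. The part of the element in these changes was not tested.

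Between 6 h and 24 h the chaperone genes did not move together. HSPA8 rose, HSPB1, HSPA1A, HSPA1B, and HSP90AA1 fell, and the other 5 did not pass the test. With edgeR's quasi-likelihood test and Benjamini-Hochberg adjustment over the 12876 genes tested, an adjusted P under 0.05 was reached by 1 of the 10 genes upward and 4 downward. Of all genes tested, 33.0% were called higher and 32.6% lower by the same rule. The 4 genes that fell are close to that background, and the single rise is below it. Both times were separated, in either direction, in 7 of the 10 genes and in 81.8% of all genes tested. The median log2 fold change was -0.096 in the 10 genes and 0.0029 in all genes tested. Both 24 h libraries lay above both 6 h libraries in 2 of the 10 genes and below them in 5, against 41.0% and 40.8% of all genes tested. The methods of the study call a gene where its log2 change is below -0.5 and P, without adjustment, is below 0.01, and these cutoffs were extended here to both directions. By them, no gene (0) of the 10 rose and 2 fell, HSPB1 and HSPA1A. Of all genes tested, 17.4% rose and 17.7% fell by these cutoffs. HSPA8 lay at the edge of the upward cutoff.

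**Figure D1:**
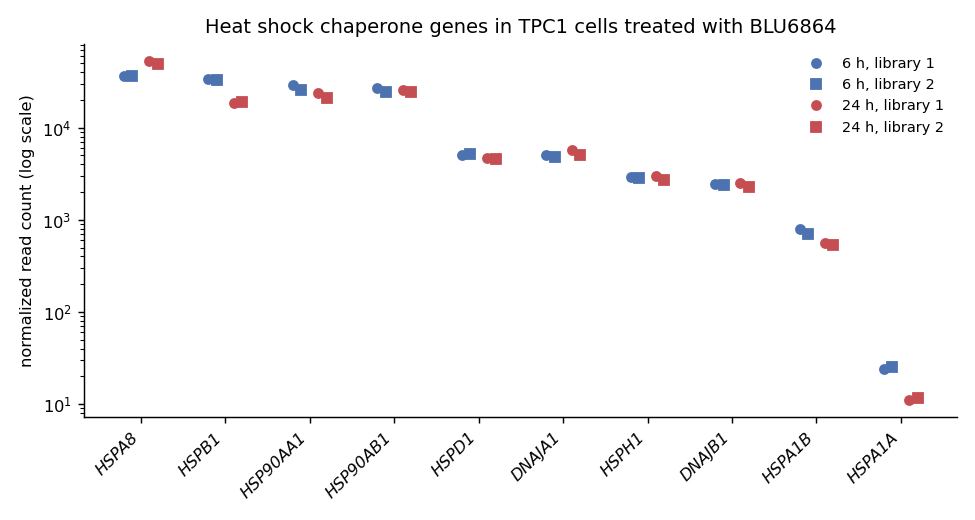
Normalized read count of the 10 heat shock chaperone genes (log axis) in each of the 4 libraries, with 6 h in blue and 24 h in red, and circles and squares for libraries 1 and 2. HSPA8 is higher in both 24 h libraries, HSPB1, HSPA1A, HSPA1B, and HSP90AA1 are lower, and HSPH1, DNAJB1, and HSP90AB1 overlap.

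HSPA8 (ENSG00000109971, chromosome 11 of hg19 from 122928197 to 122933938) encodes HSC70, the constitutive HSP70 that folds new proteins and uncoats clathrin vesicles. Its normalized count, which is the raw count scaled to the TMM-adjusted size of the library, was 36175 and 36635 at 6 h and 53170 and 49739 at 24 h. The times did not overlap, and the 6 h libraries differed from each other by far less than from those at 24 h. This was a 1.41-fold rise, or a log2 fold change (log2FC) of 0.50 with a standard error (SE) of 0.084 and, from edgeR, an adjusted P of 1.03e-05. Unrounded it was 0.4992, just short of the upward cutoff of 0.5, and it ranged from 0.46 to 0.55 under the alternatives run. Among all genes tested, 38.3% had a larger change in size. HSPA8 was already the chaperone gene with the most reads at 6 h.

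HSPB1 (ENSG00000106211, chromosome 7 from 75931861 to 75933612) encodes HSP27, a small heat shock protein that also binds actin and is phosphorylated downstream of p38. It had 33711 and 33383 normalized counts at 6 h and 18527 and 19068 at 24 h. The 2 libraries of each time lay close together and far from those of the other time. The log2FC was -0.84 (SE 0.080, edgeR adjusted P = 7.53e-10). This left 0.560 of the level at 6 h, and 20.3% of all genes tested had a larger change. HSPB1 stayed called lower under every alternative run, with a log2FC between -0.88 and -0.81.

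HSPA1A and HSPA1B, neighbours in the class III region of the major histocompatibility complex on chromosome 6, encode almost the same inducible HSP70. HSPA1B (ENSG00000204388, from 31795512 to 31798031) had 786 and 701 normalized counts at 6 h and 562 and 528 at 24 h. Both 24 h libraries were lower, and the log2FC was -0.45 (SE 0.089, edgeR adjusted P = 9.46e-05). HSPA1A (ENSG00000204389, from 31783291 to 31785723) had only 22 and 26 raw reads at 6 h and 11 and 12 at 24 h. The times did not overlap here either. The log2FC was -1.10, with the largest SE of the 10 genes, 0.367 (edgeR adjusted P = 0.0108). With DESeq2 the adjusted P of HSPA1A was 0.145. Without library 1 of 24 h it was 0.0696, without library 2 of 24 h it was 0.0585, and without library 2 of 6 h it was 0.0677. Its log2FC was about as large in these 3 fits, between -1.14 and -1.05, and -1.11 with DESeq2.

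Reads from this pair can be split only where the genes differ. Of the 50-base windows of the HSPA1A transcript, 75.1% occur elsewhere in the hg38 genome, and 71.6% of those of HSPA1B. All 1766 repeated windows of each gene lie in the other one, and within the coding sequence the share was 93.9% in both. At 100 bases the shares were still 72.4% and 68.9%. HSPA1A kept 585 unique windows and HSPA1B 702, yet HSPA1B had between 28.1 and 51.3 times as many reads as HSPA1A. How the counting treated reads that map to both is not given in the sources used here, so the level of each gene and their ratio are uncertain. With both counts summed into 1 gene, the total was 750 and 757 raw reads at 6 h and 575 and 555 at 24 h. For this sum, the log2FC was -0.46 (SE 0.088, edgeR adjusted P = 5.21e-05).

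**Figure D2:**
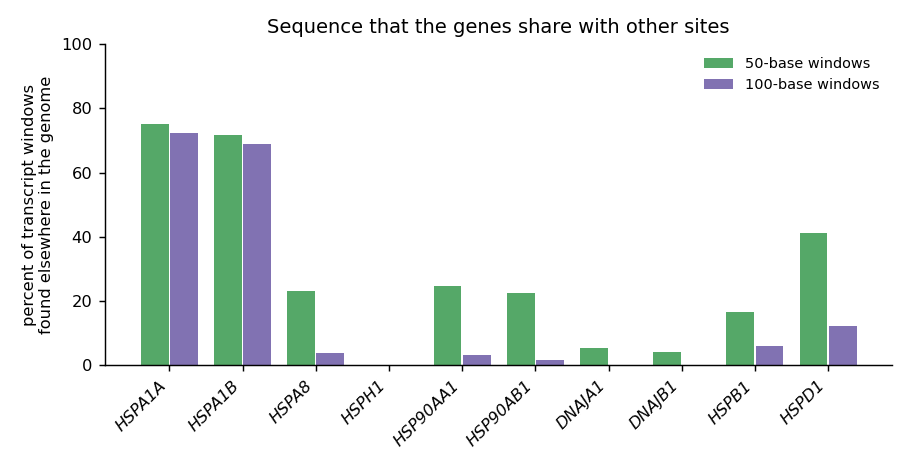
Percent of the 50-base (green) and 100-base (purple) windows of each gene's reference transcript that occur at another place in the hg38 genome. HSPA1A and HSPA1B stand at 75.1% and 71.6% for 50 bases and stay near that at 100 bases, whereas the other genes are at 41.3% or less and fall to 12.3% or less.

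Shared sequence was smaller in the other genes and was not with another of the 10 chaperones. Of 50-base windows, 41.3% were repeated in HSPD1, 24.6% in HSP90AA1, 23.2% in HSPA8, 22.5% in HSP90AB1, and 16.6% in HSPB1. In DNAJA1, DNAJB1, and HSPH1 the share was 5.42% or less. At 100 bases HSPD1 had the highest of these, with 12.3%. The same sequence is counted at both times, and its part in the fold changes was not tested.

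HSPH1 (ENSG00000120694, chromosome 13 from 31710762 to 31736525), the HSP110 of the cytosol, had 2934 and 2831 normalized counts at 6 h and 2964 and 2686 at 24 h. The libraries of the 2 times overlapped. The log2FC was -0.03 (SE 0.072), and 95.8% of all genes tested had a larger change.

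Of the 2 cytosolic HSP90 genes, HSP90AA1 passed the test and HSP90AB1 did not. HSP90AA1 (ENSG00000080824, chromosome 14 from 102547075 to 102606036), the inducible form, had 29013 and 25839 normalized counts at 6 h and 24050 and 21297 at 24 h. Both 24 h libraries were lower, and library 1 was above library 2 at each time. The log2FC was -0.27 (SE 0.086, edgeR adjusted P = 0.00680). Without library 2 of 24 h the log2FC became -0.18 and edgeR's adjusted P became 0.208, so the call needed that library. HSP90AB1 (ENSG00000096384, chromosome 6 from 44214824 to 44221620), the constitutive form, had 27352 and 24565 normalized counts at 6 h and 25953 and 24173 at 24 h. These overlap, and its log2FC was -0.05 (SE 0.083).

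The ratio of the 2 HSP90 genes within a library does not depend on scaling. HSP90AA1 had 1.06 and 1.05 times the raw reads of HSP90AB1 at 6 h and 0.927 and 0.881 times at 24 h. The log2 ratio was 0.079 ± 0.0086 (SD, n = 2) at 6 h. It was -0.15 ± 0.052 at 24 h, lower by a difference of -0.23. The exact two-sided permutation test gave P = 0.333, the smallest that 2 libraries against 2 allow. In HSP70, HSPA8 had 44.7 and 50.4 times the reads of HSPA1A and HSPA1B together at 6 h and 92.8 and 92.1 times at 24 h. The log2 ratio of the inducible pair to HSPA8 differed by -0.96 between the times, again with an exact permutation P of 0.333. Within each of these 2 comparisons of cytosolic genes, the inducible form had fewer reads relative to the constitutive one at 24 h than at 6 h.

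**Figure D3:**
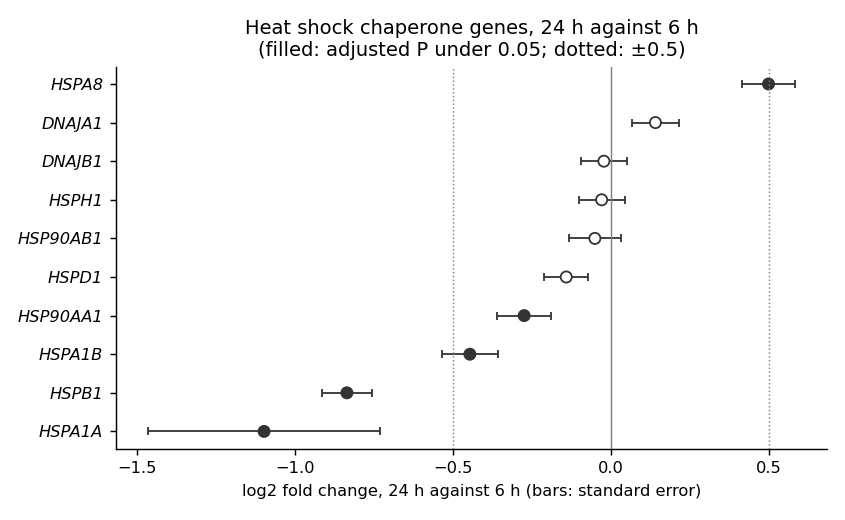
Log2 fold change of each heat shock chaperone gene, 24 h against 6 h, with bars for the standard error of edgeR's test, filled points for an adjusted P under 0.05 and dotted lines at a log2 fold change of 0.5 in either direction. HSPA8 sits on the upper dotted line, HSPB1 and HSPA1A lie beyond the lower one, and HSPA1A has the widest bar.

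Neither J-domain gene passed the test. DNAJA1 (ENSG00000086061, chromosome 9 from 33025209 to 33039905), which pairs with HSPA8, had 5026 and 4776 normalized counts at 6 h and 5707 and 5102 at 24 h. The lower 24 h library lay just above the higher 6 h library, so the times did not overlap. The log2FC of 0.14 (SE 0.074) did not pass (edgeR adjusted P = 0.0973). It passed once library 2 of 24 h was left out, at 0.23 (edgeR adjusted P = 0.0379). DNAJB1 (ENSG00000132002, chromosome 19 from 14625582 to 14640582), or HSP40, the partner of the inducible HSP70, had 2441 and 2392 normalized counts at 6 h and 2498 and 2262 at 24 h. Its libraries overlapped, and its log2FC was -0.02 (SE 0.072), and 97.0% of all genes tested had a larger change in size. The position of DNAJB1 overlaps that of TECR by 12686 bases in the table, so reads of the 2 genes may not be separated. TECR had a log2FC of -0.13 that did not pass. HSPA1A overlaps HSPA1L by 147 bases and HSP90AA1 overlaps WDR20 by 197 bases.

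HSPD1 (ENSG00000144381, chromosome 2 from 198351305 to 198381461) encodes HSP60, the mitochondrial chaperonin, and shares a start region with HSPE1, its lid HSP10. HSPD1 had 5018 and 5157 normalized counts at 6 h and 4685 and 4542 at 24 h. Both 24 h libraries were lower, but the log2FC of -0.14 (SE 0.070) did not pass (edgeR adjusted P = 0.0801). HSPE1 had 436 and 509 normalized counts at 6 h and 317 and 343 at 24 h, and its log2FC was -0.52 (SE 0.103, edgeR adjusted P = 8.36e-05). The interval of HSPD1 in the table covers that of HSPE1. It also overlaps HSPE1-MOB4 by 16325 bases, with 0 reads in each library, and MOB4 by 1167 bases. MOB4 had a log2FC of -0.495 (edgeR adjusted P = 1.15e-05). Reads of these genes may not be separated, and the part of this in the counts of HSPD1 and HSPE1 was not tested. Of a list of 13 other mitochondrial chaperone and protease genes, HSPE1 included, 3 rose and 7 fell with an adjusted P under 0.05. GRPEL1, the nucleotide exchange factor of the mitochondrial HSP70, had the highest log2FC, 0.51. Of all genes tested, 33.0% rose and 32.6% fell. HSCB, a J-domain protein of iron-sulfur cluster assembly, had -0.72, the disaggregase CLPB -0.72, and DNAJC15, of the import motor, -0.70.

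The 10 genes together took a slightly smaller share of the reads at 24 h. Their share was 0.552% (95% Clopper-Pearson interval 0.549% to 0.555%) and 0.530% (0.527% to 0.532%) of all reads at 6 h. At 24 h it was 0.523% (0.521% to 0.526%) and 0.484% (0.482% to 0.487%). These intervals cover counting error only. Both 24 h libraries were lower, and the difference of the means was -0.0368 percentage points, with an exact permutation P of 0.333. Leaving out library 2 of 24 h brought the difference to -0.0173, and leaving out library 1 of 24 h to -0.0564. The make-up of this share also differed between the times. HSPA8 went from 25.4% and 26.9% of the reads of the 10 genes at 6 h to 38.5% and 38.4% at 24 h. HSPB1 went from 23.7% and 24.5% to 13.4% and 14.7%. HSP90AB1 held between 18.0% and 19.2% in all 4 libraries. These values are relative to the reads of a library, so less RNA of a gene per cell and more RNA of other genes cannot be told apart.

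**Figure D4:**
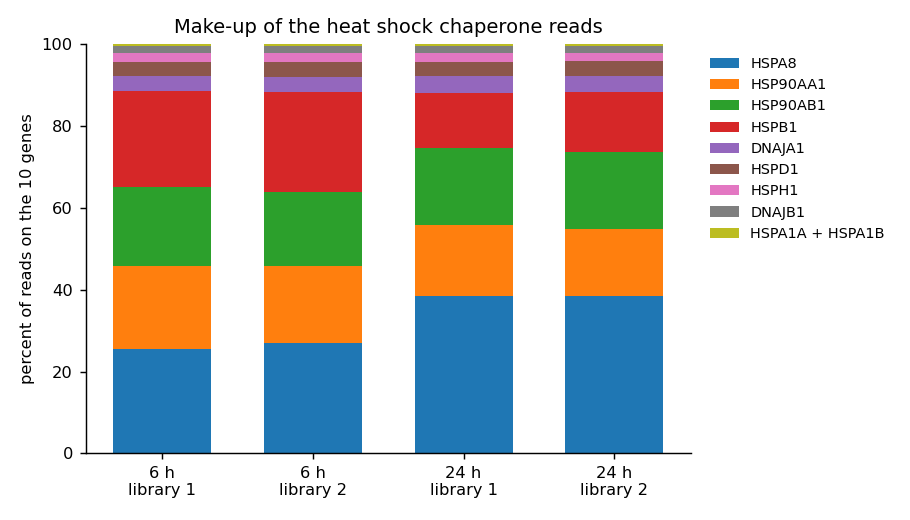
Make-up of the reads on the 10 heat shock chaperone genes in each library, in percent of their sum. The HSPA8 part grows from 25.4% and 26.9% to 38.5% and 38.4%, the HSPB1 part shrinks to 13.4% and 14.7%, and HSPA1A with HSPA1B is a thin line at the top.

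Per length, as TPM (counts divided by transcript length and scaled to the same total in each library) over the 18393 genes with a reference transcript, HSPB1 was the highest of the 10 genes at both times. Its transcript is the shortest of theirs, with 777 bases. Its level was 3859 ± 93.4 (SD, n = 2) at 6 h, the 16th highest of these 18393 genes, and 2108 ± 31.4 at 24 h. HSPA8 followed with 1437 ± 12.0 and 1981 ± 104. At 24 h HSPB1 lay between 2086 and 2130 and HSPA8 between 1907 and 2054. These lengths count whole transcripts, and the share of repeated 50-base windows was 16.6% in HSPB1 and 23.2% in HSPA8. The order of both genes at 24 h is therefore uncertain. HSP90AB1 had 909 ± 84.6 and 855 ± 47.6, and HSP90AA1 had 760 ± 75.3 and 612 ± 55.9. By whole length HSPD1 and DNAJA1 changed places. Their TPM was 202.5 ± 0.413 and 189 ± 10.1 at 6 h and 179 ± 4.90 and 203 ± 17.2 at 24 h. Neither gene passed the test between the times. Of 50-base windows, 41.3% were repeated in HSPD1 and 5.42% in DNAJA1, so their order by TPM is uncertain. DNAJB1, HSPH1, HSPA1B, and HSPA1A came last, with 96.3, 49.1, 26.4, and 0.906 at 6 h. No neighbours in this order overlapped in their libraries at either time, although the shared sequence above limits the levels of HSPA1A, HSPA1B, and HSPD1 most.

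The rest of the cytosolic machinery also moved in both directions. The counts of its groups are to be read beside the 33.0% of all genes tested that rose and the 32.6% that fell. Of the 8 other HSP70 and HSP110 genes, 7 were tested, 2 rose and 2 fell. With library 2 of 6 h left out, 1 rose. HSPA6, an HSP70 known for being made under strong stress, had 33 and 25 raw reads at 6 h and 3 and 2 at 24 h. It was 12 times as abundant at 6 h, with an exact 95% counting interval from 4.85 to 38.3. This interval leaves out the spread between libraries. HSPA6 passed the filter on low counts only through its 6 h reads, so its call among the 2 that fell leans on that group. With the filter of 10 counts in each library HSPA6 was not tested, and 1 gene of the list fell. HSPA14, a ribosome-bound HSP70, fell with a log2FC of -0.77. HSPA12A had the highest, 0.39. Of 15 other J-domain genes tested, 3 rose and 8 fell, 1 of these at an edgeR adjusted P of 0.0499. With DESeq2, 2 rose and 7 fell, and 7 fell with upper quartile scaling or no filter on low counts. DNAJC6 (auxilin), which recruits HSPA8 to clathrin coats, rose from 22.7 and 18.2 normalized counts to 95.6 and 100.2, a log2FC of 2.26 (SE 0.237, edgeR adjusted P = 4.07e-09). DNAJC9, a histone chaperone, DNAJB4, DNAJB5, and DNAJC21, a factor of ribosome assembly, fell, with log2FC of -1.10, -0.99, -0.81, and -0.73.

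A list of BAG genes and nucleotide exchange factors, which release substrate from HSP70, rose in 5 of 8 cases and fell in 2. HSPH1 and the other HSP110 genes were counted elsewhere and are not in this list. Without either library of 6 h, 1 fell. HSPBP1 had the highest log2FC, 0.51 (SE 0.082, edgeR adjusted P = 5.70e-06), and BAG2 the lowest, -0.27. The list's median was 0.34, beside 0.0029 in all genes tested. SIL1, of the endoplasmic reticulum, did not pass. Of 19 cochaperones of HSP90 and HSP70, 4 rose and 8 fell, and 2 rose without library 2 of 6 h. FKBP8 rose by 0.53 on the log2 scale. FKBP5, a prolyl isomerase of steroid receptor complexes and a known glucocorticoid target, fell most, with -1.33 (SE 0.115, edgeR adjusted P = 1.11e-10). HSPB11, which is better known as a protein of cilia, PPID, and SUGT1 fell with -1.01, -0.57, and -0.53. TTC4 had the highest value, 0.60, at 8 to 20 raw reads, and did not pass. Other small heat shock proteins had few reads, and 2 of 8 genes were tested. CRYAB (alpha B-crystallin) rose from 60.5 and 58.5 normalized counts to 186 and 177, and its log2FC was 1.61 (SE 0.163, edgeR adjusted P = 2.07e-09), whereas HSPB8, at -0.09, did not pass. CRYAB and HSPB1, members of one family, thus moved in opposite directions.

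**Figure D5:**
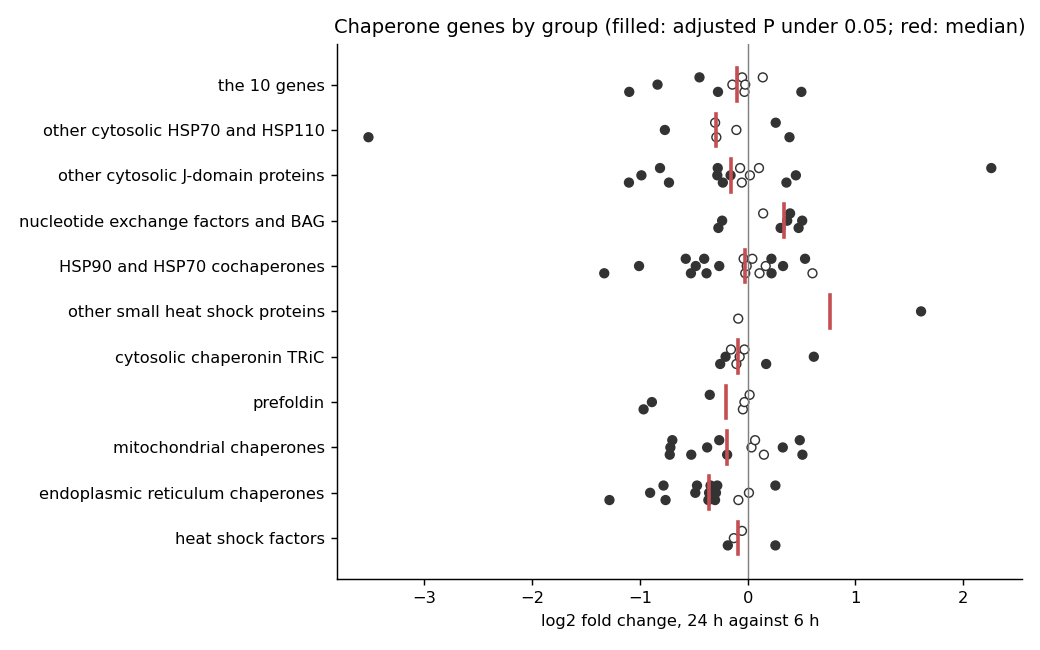
Log2 fold change, 24 h against 6 h, of the tested genes of each chaperone group, with filled points for an adjusted P under 0.05 and a red line at the median of the group. HSPA6 lies far to the left at -3.52 and DNAJC6 far to the right at 2.26, and most groups hold genes on both sides of 0.

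The folding machines for actin and tubulin were unevenly changed. Of the 8 subunits of the chaperonin TRiC, 2 rose and 2 fell. Without library 1 of 24 h, 1 rose and 1 fell, without library 2 of 24 h, 0 fell, and without library 2 of 6 h, 1 rose. CCT6A rose, and its log2FC was 0.61 (SE 0.072, edgeR adjusted P = 3.16e-08), and CCT7 had the lowest, -0.25. Prefoldin, which passes actin and tubulin to TRiC, had 3 of 6 subunits lower and 0 higher. PFDN2 and VBP1 fell with -0.97 and -0.89, and PFDN6 had the highest value, 0.02. Among the heat shock factors, HSF1, the main activator of the heat shock genes, rose from 2232 and 2210 normalized counts to 2612 and 2700. Its log2FC was 0.26 (SE 0.070, edgeR adjusted P = 0.00207). HSF2 did not pass. HSBP1, which binds HSF1 and is not itself a factor, was in the same list and had -0.18 (edgeR adjusted P = 0.0320). That call was lost without library 1 of 24 h, library 2 of 24 h, or library 2 of 6 h.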

How the data were processed

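RNA was measured in 4 libraries of TPC1 cells. The authors aligned reads to hg19 with STAR (version 2.3 in the submitters' processing notes) and deposited a raw read count per gene. The counting program and strand setting are not given in the sources used here. Also deposited by the authors, and not used, were a normalized signal per gene, a log2 fold change with its error, a Wald score, and a P-value. All columns of sample values were matched to a library (0 unmatched).

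Counts were filtered with filterByExpr, scaled by TMM, and compared between times with edgeR 4.0.16 in R 4.3.3. DESeq2 1.42.0 was an alternative, and the procedure was tested on simulated data. SE was the size of the log2 fold change over the square root of F. Replicates were not 1 library deposited again, since their chi-square divided by its degrees of freedom was 7.87 for 24 h and 10.3 for 6 h. Transcript lengths (MANE Select) came from GENCODE, gave TPM, and matched 18393 of 20372 genes by identifier. Window repeats were counted by exact match on both strands of hg38 outside the gene's own locus. Plots used matplotlib 3.10.9.

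The genes were picked by name, by a rule that uses no measured value, but they and the lists were chosen with earlier results of these data known. Genes named from the lists were those past the cutoffs of the methods in either direction and the highest and lowest of each list, with HSPE1, HSF1, and genes that overlap a chaperone gene. HSF2, SIL1, and HSPB8 were named beside their lists. A thyroid marker is not reported here.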

Additional observations from a re-analysis of the deposited data

How the results depend on the processing

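Alternatives were DESeq2, scaling by library size or upper quartile, a filter of none or of 10 counts in each library, the replicate block, and HSPA1A summed with HSPA1B. Under each of these, the numbers of genes called higher and lower stayed within 1.5 times of 4247 and 4196. With the cutoffs of the methods, extended to both directions, they were 2238 and 2278, and 0 of the 10 chaperone genes were higher and 2 lower. These cutoffs change both the size and the P asked for, and the part of each was not tested. The number of chaperone genes called higher was 2 with upper quartile scaling, through DNAJA1. Same-numbered libraries had a correlation of deviations of 0.0691, so the numbers were not taken as pairs, and with the replicate block 2 chaperone genes were higher and 5 lower, through DNAJA1 and HSPD1. Library size alone also added HSPD1, and DESeq2 removed HSPA1A. In fits that left out 1 library each, in which the lone library of a time is assumed to vary like the others, from 1 to 2 chaperone genes were higher and from 2 to 4 lower. Genes called higher ranged from 3752 to 3922 and genes called lower from 3731 to 3813. The median log2 fold change of the 10 genes lay between -0.13 and -0.052. The HSP90 log2 ratio differed by -0.26 to -0.19 and the HSP70 one by -1.05 to -0.87. In the other lists, TRiC genes higher were 1 with DESeq2 and with library size. HSP70 and HSP110 genes higher were 1 with DESeq2 and lower were 1 with the filter of 10 counts. The list of heat shock factors and HSBP1 had 0 genes lower with upper quartile scaling. HSPA1A had at most 26 reads in a library, which widens its error.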

Other observations

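Chaperones of the endoplasmic reticulum, which fold secreted and membrane proteins, were mostly lower at 24 h. Of 15 genes tested, 12 fell and 1 rose with an adjusted P under 0.05 from edgeR, beside 32.6% and 33.0% of all genes tested, and the median log2 fold change was -0.36. The lowest log2FC was that of HSPA13, an HSP70 of microsomes, at -1.28 (SE 0.073). HSP90B1 (GRP94), the HSP90 of this compartment, fell from 31626 and 25644 normalized counts to 15936 and 14662, a log2FC of -0.90 (SE 0.091, edgeR adjusted P = 1.95e-09). SDF2L1 and DNAJC3 fell with -0.78 and -0.76. HSPA5 (BiP), the HSP70 of the same compartment, had 28817 and 24586 normalized counts at 6 h and 25518 and 24813 at 24 h, which overlap, and its log2FC of -0.09 did not pass. SERPINH1, the collagen chaperone HSP47, rose with 0.26. HSPA5 was chosen after its values were seen.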
